A study of Mus with 4 samples.

Results

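The genes described here are 32 genes of glucose transport, glycolysis, lactate handling, the pyruvate dehydrogenase step and the pentose phosphate pathway, with the transcription factors Hif1a and Myc. They were listed by name, and each was read from the array row that names it alone, taking the row with the highest mean where there were several. Of the 32 genes, 28 had such a row, among 30142 genes that had one, and 27 of these passed a filter on level and were tested with 16245 genes in all. The filter kept genes whose mean over the 4 arrays exceeded 4.22 on the log2 scale, the median of all row means. Gpi1, Eno1 and G6pdx are not analysed here. The row of Tkt also names the microRNA Mir3076, and Aldoc lay under the filter. Whether these 5 genes differ between the genotypes was therefore not tested.

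RNA came from natural killer (NK) cells of mouse liver, sorted for absence of the DX5 antigen, with 2 Affymetrix arrays from wild-type (WT) C57BL/6 mice and 2 from dnTGFbRII mice, labelled as of the same strain. All mice were females of 6 to 8 weeks. The dnTGFbRII mice carry a dominant-negative form of the type II receptor for TGF-beta, and the study asked how resident liver NK cells are altered in an inflamed liver. In the line generally known by this name the transgene is driven by the Cd4 promoter in T cells. The labels do not name the promoter, so whether the sorted cells themselves carry the altered receptor is not known here. Nor do they say that replicate arrays stand for different animals. Errors and p-values here thus measure only how far these samples spread, and that spread may be technical.

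Glycolysis breaks glucose down to pyruvate in the cytosol. Pyruvate then either enters the mitochondria through pyruvate dehydrogenase or is reduced to lactate and exported, while the pentose phosphate pathway branches off early to make NADPH and ribose. NK cells at rest rely largely on mitochondrial respiration, and cytokine stimulation raises their glucose uptake and glycolysis, with Myc and the kinase complex mTORC1 as known drivers. TGF-beta is known to restrain this metabolic activation in NK cells.

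The sorted cells carried NK markers on every array, and markers of other cell types differed between arrays. All 14 NK and type 1 innate lymphoid cell markers passed the filter, with a mean log2 level between 15.73 and 16.06. Cxcr6 was far lower than the rest, at 6.31 and 6.73 in WT and 6.07 and 6.60 in dnTGFbRII cells. Of 11 measured dendritic cell markers 10 passed, all 10 lower in mean in dnTGFbRII cells, and the mean level was 9.83 and 8.16 on WT replicates 1 and 2 and 7.22 and 7.20 on the dnTGFbRII arrays. Their summed linear level was 161728 and 100609 in WT and 54458 and 86477 in dnTGFbRII cells. Its largest term on every array was Itgax, at 16.16 and 16.37 in WT and 15.61 and 16.32 in dnTGFbRII cells on the log2 scale. The sum does not follow Itgax alone, since from WT replicate 1 to WT replicate 2 the sum fell while Itgax rose. H2-Ab1, another large term, measured 15.72 and 13.40 on those arrays. H2-Ab1 (-3.05 ± 0.79), H2-Aa (-3.01 ± 0.82) and Clec9a (-3.48 ± 1.04) led this list, and WT replicate 1 stood apart in it. Of 11 T cell markers 8 passed, 7 of them higher in mean in dnTGFbRII cells, and the mean level was 6.90 and 6.62 in WT and 7.62 and 7.38 in dnTGFbRII cells. Cd3d (2.13 ± 0.23), Cd8a (1.10 ± 0.16) and Cd40lg (0.65 ± 0.13) led this list by test statistic. On every array Cd40lg lay under the highest of the 23 background probe sets of that array. Cd3e differed by 2.78 ± 0.68 and Cd4 by 0.06 ± 0.13. The summed linear T cell level overlapped, at 64949 and 59616 in WT and 62665 and 52126 in dnTGFbRII cells, with Cd3g (-0.45 ± 0.13) its largest term. Neutrophil markers had mean levels of 3.86 to 3.93 in WT and 4.04 to 4.40 in dnTGFbRII cells, with 5 of 10 under the filter. Macrophage and monocyte markers had means from 5.18 to 5.79 over the arrays, with Clec4f, Cd163, Vsig4 and Timd4 under the filter. B cell, hepatocyte and erythroid markers had means between 3.79 and 4.27. Single genes of these lists varied more between arrays than the means. Lyz2, a macrophage and monocyte marker, measured 10.23 and 8.23 in WT and 9.25 and 11.02 in dnTGFbRII cells. Alb, a hepatocyte marker, measured 4.79 and 6.62 in WT and 4.49 and 4.60 in dnTGFbRII cells. Of 12 tested genes of proliferating cells, 10 were higher in mean in dnTGFbRII cells, with a median difference of 0.17 and 0 at an unadjusted p under 0.05 or past the adjusted threshold in limma. In these bulk samples, fewer cells of a type and less RNA per cell cannot be told apart.

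**Figure D1:**
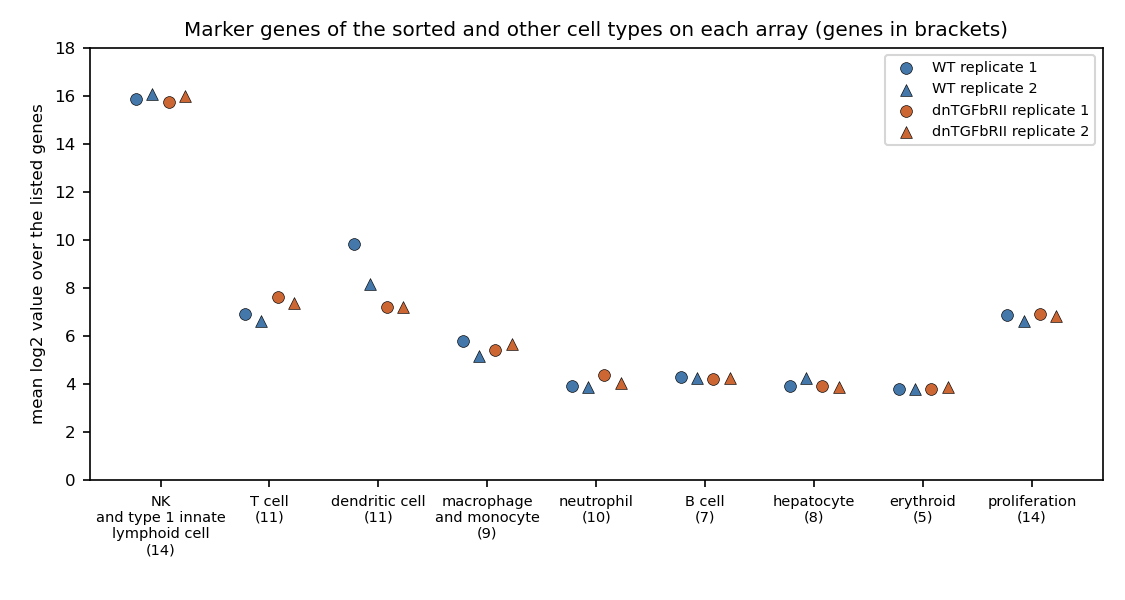
Mean log2 value over the measured genes of each marker list (number in brackets) on the 4 arrays, blue WT and orange dnTGFbRII, circles replicate 1 and triangles replicate 2. The NK marker mean lies near 16 on all arrays. The dendritic cell mean peaks at 9.83 in WT replicate 1, and the T cell mean is higher on both dnTGFbRII arrays.

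No glucose-handling gene passed the test between the genotypes. Of the 27 tested genes, 0 passed an adjusted p of 0.05 in limma, against 0% of all genes tested. At an unadjusted p under 0.05, 0 members were higher and 0 were lower in dnTGFbRII cells, against 1.95% and 1.29% of all genes tested. Of the members, 0 differed by 1.5-fold or more, against 2.41% of all genes tested, and 0 by 2-fold or more, against 0.893%. At shares this low, 0 of 27 does not set the members apart from other genes. The median absolute log2 difference was 0.14 over the members and 0.10 over all genes tested. The lowest adjusted p among the members was 1.00 in limma, where it was 0.725 over all genes tested. Missing the threshold does not show that the genotypes were alike. The 95% intervals of the fit lay within a 2-fold change in either direction for 23 of the 27 members and within a 1.5-fold change for 14. Hk2, Pfkp, Pgam1 and Slc16a1 were the 4 whose intervals reached past 2-fold.

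The differences were spread around a small positive value. Of the 27 members 19 had a positive difference, dnTGFbRII minus WT, against 47.4% of all genes tested, and 8 had a negative one. Their median was 0.06 on the log2 scale, against -0.01 over all genes tested. Both dnTGFbRII arrays lay above both WT arrays for 7 members (25.9%), against 12.6% of all genes tested. Both lay below for 2 members (7.41%), against 14.5%. Among these, Hk3 and Slc16a3 above and Hk2 below lay on every array under the highest of its 23 background probe sets. Pgk1 counted as above through 1 of its 2 rows. After median centring of the arrays, the shares of all genes were 10.2% above and 18.2% below, and the members' counts were 7 and 3. An exact permutation test of a single gene cannot give a 2-sided p under 0.333 with 2 arrays on each side, so these counts describe the arrays. The difference exceeded the larger of the gaps between arrays of a genotype for 4 members, Hk3, Tpi1, Pgk1 and Slc16a3, against 17.7% of all genes tested. Without dnTGFbRII replicate 2 the median over the members turned to -0.06, and without dnTGFbRII replicate 1 it was 0.13.

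**Figure D2:**
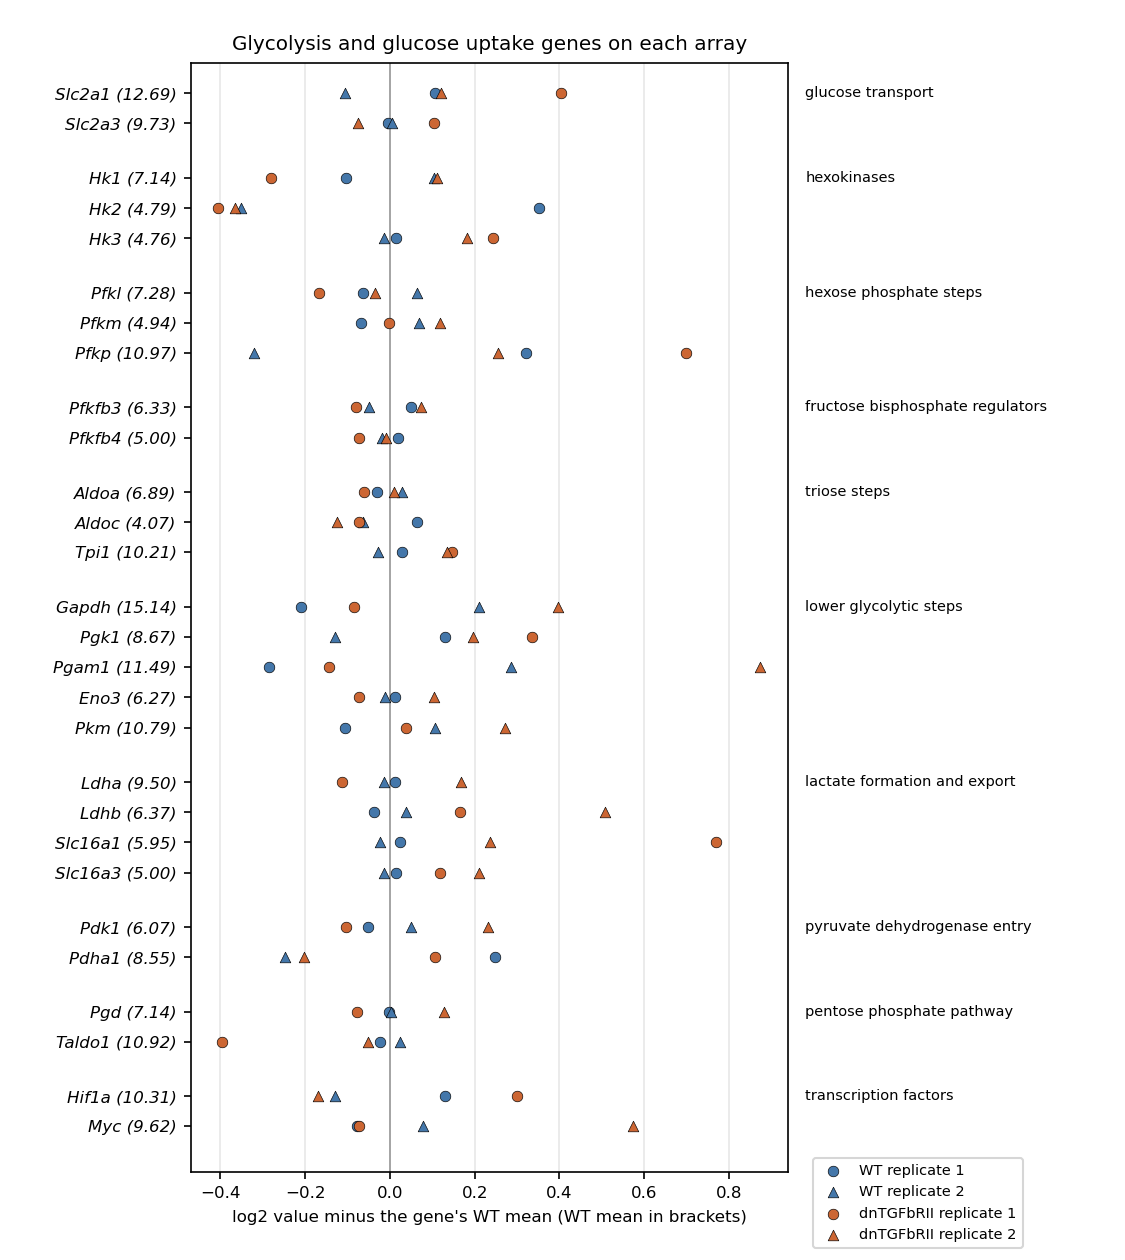
Log2 value of each of the 28 measured genes on the 4 arrays, minus the mean of the WT arrays, which stands in brackets after the gene's name. Circles are replicate 1 and triangles replicate 2, blue WT and orange dnTGFbRII. For 18 of the 27 tested genes the arrays of the genotypes overlap; Slc16a1 and Pgam1 each have 1 dnTGFbRII array far to the right.

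Glucose enters NK cells through facilitative transporters. Slc2a1, which encodes GLUT1, the transporter induced on activated lymphocytes, measured 12.79 and 12.58 on WT replicates 1 and 2 and 13.09 and 12.81 on dnTGFbRII replicates 1 and 2. Both dnTGFbRII arrays were above both WT arrays, the lower of them by a margin smaller than the gap within either genotype. The difference was 0.26 ± 0.17 (SE), a 1.20-fold level, with a limma adjusted p of 1.00. Leaving out dnTGFbRII replicate 1 gave 0.12, leaving out WT replicate 2 gave 0.16, and leaving out dnTGFbRII replicate 2 gave 0.40. Slc2a3, which encodes the high-affinity transporter GLUT3, measured 9.73 and 9.74 in WT and 9.84 and 9.66 in dnTGFbRII cells. Its WT arrays lay between the dnTGFbRII arrays, and the difference was 0.01 ± 0.13.

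Hexokinases trap glucose in the cell as glucose 6-phosphate, and none of the 3 isoforms passed the test. Hk1, the constitutive isoform, measured 7.04 and 7.25 in WT and 6.86 and 7.25 in dnTGFbRII cells, a difference of -0.08 ± 0.19. Hk2, the inducible isoform, measured 5.14 on WT replicate 1, 4.43 on WT replicate 2, and 4.38 and 4.42 on the dnTGFbRII arrays. WT replicate 1 alone stood apart, and the difference of -0.38 ± 0.26 was -0.03 without it. This is also the array with the highest dendritic cell markers, whose part in the Hk2 value was not tested. Hk3, an isoform typical of myeloid cells, measured 4.77 and 4.74 in WT and 5.0 and 4.94 in dnTGFbRII cells, a difference of 0.21 ± 0.12 with no overlap. On every array Hk2 and Hk3 lay under the highest of the 23 background probe sets of that array, which reached 5.33 to 6.21, so their levels were hard to tell from background.

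Phosphofructokinase commits the sugar to glycolysis. Of its subunits Pfkp, the platelet type, measured 11.29 and 10.65 in WT and 11.67 and 11.22 in dnTGFbRII cells. WT replicate 1 lay above dnTGFbRII replicate 2, and the difference of 0.48 ± 0.28 (a 1.39-fold level, limma unadjusted p = 0.161, adjusted p = 1.00) was smaller than the gap of 0.64 between the WT arrays. It became 0.15 when WT replicate 2 was left out, 0.25 when dnTGFbRII replicate 1 was, and 0.80 when WT replicate 1 was. The liver type, Pfkl, measured 7.22 and 7.35 in WT and 7.11 and 7.25 in dnTGFbRII cells, a difference of -0.10 ± 0.13. The muscle type, Pfkm, went from 4.87 and 5.01 to 4.94 and 5.06, a difference of 0.06 ± 0.13, with every array under its highest background probe set. The bifunctional enzymes that set the level of fructose 2,6-bisphosphate, an activator of phosphofructokinase, overlapped between the genotypes. Pfkfb3 measured 6.38 and 6.28 in WT and 6.25 and 6.41 in dnTGFbRII cells, a difference of -0.003 ± 0.13. Pfkfb4 measured 5.02 and 4.98 against 4.93 and 4.99, a difference of -0.04 ± 0.12, again under the highest background probe sets.

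Aldolase splits the hexose into trioses, which triose phosphate isomerase interconverts. Aldoa, the aldolase of most tissues, measured 6.86 and 6.92 in WT and 6.83 and 6.90 in dnTGFbRII cells, a difference of -0.03 ± 0.12. Aldoc, the brain-type aldolase, measured 4.13 and 4.0 in WT and 3.99 and 3.94 in dnTGFbRII cells and was not tested. Tpi1, the isomerase, measured 10.24 and 10.19 in WT and 10.36 and 10.35 in dnTGFbRII cells. Its arrays did not overlap and the replicates of each genotype lay close together, yet the difference of 0.14 ± 0.12 is a 1.10-fold level, with a limma unadjusted p of 0.295 and an adjusted p of 1.00.

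All 5 tested genes of the lower glycolytic steps had positive differences, 4 of them with overlapping arrays, although that of Eno3 was -0.01 after median centring of the arrays. Gapdh, glyceraldehyde 3-phosphate dehydrogenase, measured 14.93 and 15.35 in WT and 15.06 and 15.54 in dnTGFbRII cells, a difference of 0.16 ± 0.24 that is smaller than the gap within either genotype. Pkm, pyruvate kinase, measured 10.68 and 10.90 in WT and 10.83 and 11.06 in dnTGFbRII cells, a difference of 0.15 ± 0.16 that was 0.037 without dnTGFbRII replicate 2 and 0.047 without WT replicate 1. Eno3, the muscle-type enolase, measured 6.28 and 6.26 in WT and 6.20 and 6.37 in dnTGFbRII cells, a difference of 0.02 ± 0.13. In both Gapdh and Pkm replicate 2 was the higher array of each genotype. Pgam1, phosphoglycerate mutase, measured 11.21 and 11.78 in WT and 11.35 and 12.37 in dnTGFbRII cells. The dnTGFbRII arrays themselves were 1.02 apart, and the difference was 0.36 ± 0.41.

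Several of these genes have processed copies in the mouse genome, and other rows of the array also name them. The Gapdh row carries 2 Entrez identifiers, and a row shared by Gapdh and Gm7336 differed by 0.10 between the genotypes. A row shared by Pgam1 and Pgam1-ps2 measured 14.17 and 14.62 in WT and 14.48 and 15.20 in dnTGFbRII cells, a difference of 0.45 with dnTGFbRII replicate 2 the highest, as in the row of Pgam1 alone. Pgk1, phosphoglycerate kinase, has 2 rows that name it alone, and they do not give the same picture. The row with the higher mean measured 8.80 and 8.54 in WT and 9.01 and 8.86 in dnTGFbRII cells, with no overlap and a difference of 0.27 ± 0.15, which was 0.14 without WT replicate 2. Its identifier carries chromosome 12, whereas Pgk1 lies on the X chromosome. The row whose identifier carries the X chromosome measured 8.05 and 7.84 in WT and 7.99 and 7.98 in dnTGFbRII cells, with overlap and a difference of 0.05 ± 0.14. With that row, which was brought in after the values were seen, 6 members rather than 7 had both dnTGFbRII arrays above both WT arrays.

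In lactate formation and export the 4 tested genes had positive differences, and in 3 of them, Slc16a1, Ldhb and Slc16a3, both dnTGFbRII arrays lay above both WT arrays, an order that 12.6% of all genes tested showed. None of the 4 passed the test. Slc16a1, which encodes the monocarboxylate transporter MCT1, measured 5.97 and 5.93 in WT and 6.72 and 6.19 in dnTGFbRII cells. The WT arrays were close together and dnTGFbRII replicate 1 stood apart, so the difference of 0.50 ± 0.21 (a 1.42-fold level), the largest of the members, was smaller than the gap of 0.53 between the dnTGFbRII arrays. Its limma unadjusted p was 0.0699 and its adjusted p 1.00. Without dnTGFbRII replicate 1 the difference was 0.24. The mean level of T cell markers was higher on the dnTGFbRII arrays too, and its part in the values of Slc16a1, Slc2a1 and Ldhb was not tested.

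Ldhb, the lactate dehydrogenase chain that favours pyruvate formation, measured 6.34 and 6.41 in WT and 6.54 and 6.88 in dnTGFbRII cells. Both dnTGFbRII arrays were higher, by 0.34 ± 0.17 on average, with the gap between them of the same size. The difference was 0.17 without dnTGFbRII replicate 2 and 0.51 without dnTGFbRII replicate 1. Ldha, the chain that favours lactate formation and a classical Myc and HIF target, measured 9.51 and 9.49 in WT and 9.39 and 9.67 in dnTGFbRII cells, a difference of 0.03 ± 0.15 with a 95% interval from -0.37 to 0.43. The WT arrays of Ldha lay between the dnTGFbRII arrays. Slc16a3, the lactate exporter MCT4, measured 5.01 and 4.98 in WT and 5.12 and 5.21 in dnTGFbRII cells, a difference of 0.16 ± 0.12, with every array under its highest background probe set.

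**Figure D3:**
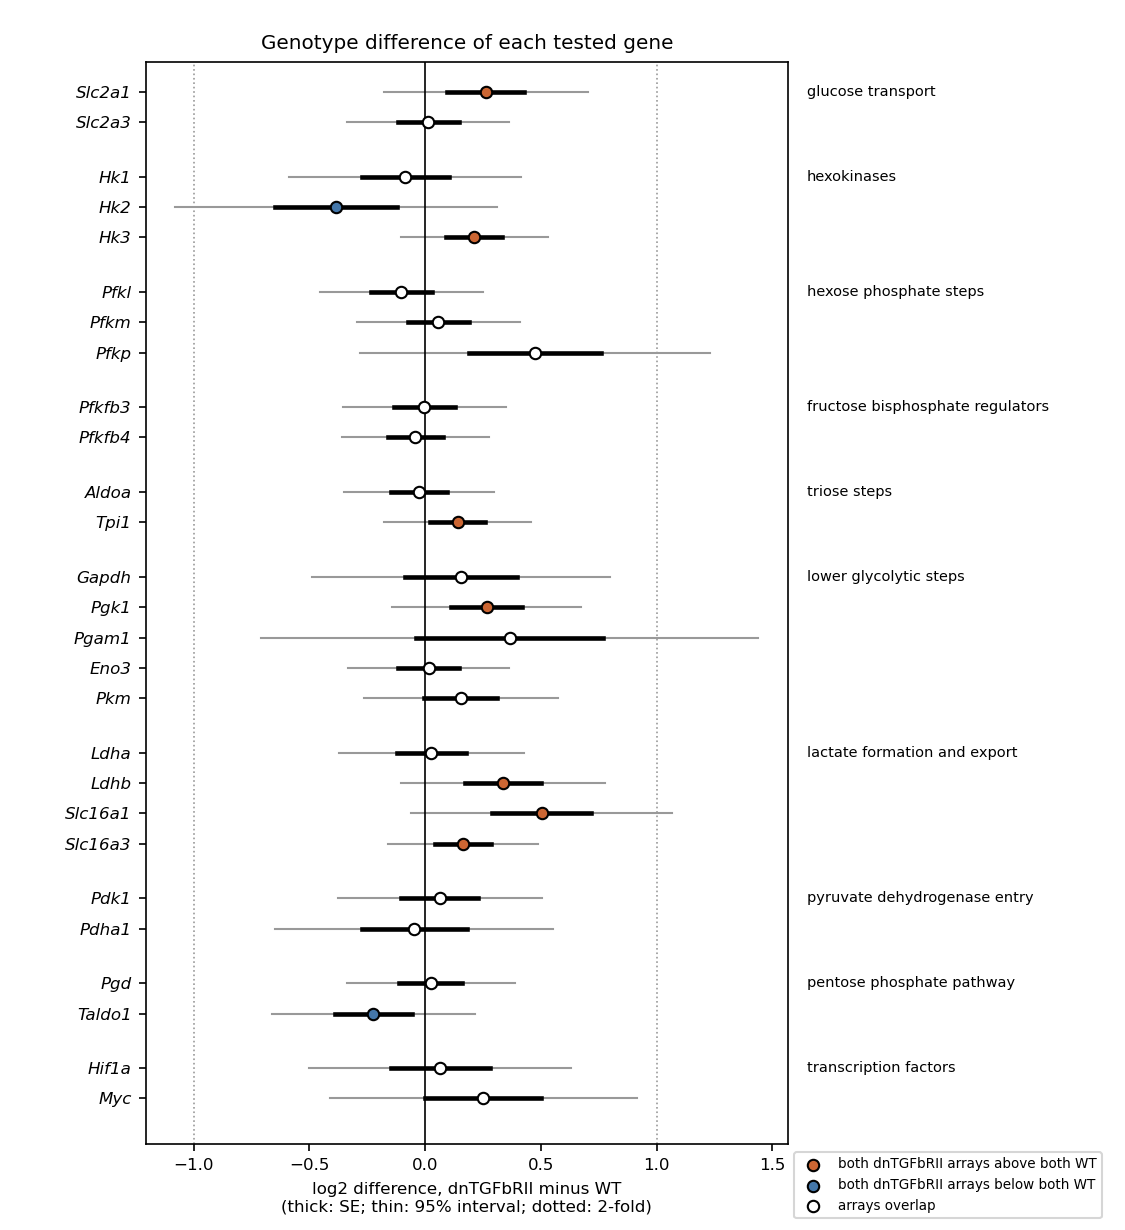
Log2 difference, dnTGFbRII minus WT, of the 27 tested genes in pathway order, with its standard error from limma as the thick bar and its 95% interval as the thin one. Orange points are the 7 genes with both dnTGFbRII arrays above both WT arrays, blue points the 2 with both below, and every interval includes 0.

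Entry of pyruvate into the mitochondria is gated by pyruvate dehydrogenase, and the kinase Pdk1 switches that enzyme off. Pdk1 measured 6.02 and 6.12 in WT and 5.97 and 6.30 in dnTGFbRII cells, a difference of 0.06 ± 0.17. Pdha1, the catalytic alpha chain, measured 8.80 and 8.30 in WT and 8.66 and 8.35 in dnTGFbRII cells, a difference of -0.05 ± 0.23. Replicate 1 was the higher Pdha1 array in both genotypes and the genotypes overlapped in both genes.

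In the pentose phosphate pathway the 2 tested genes had differences of opposite sign. Taldo1, transaldolase of the non-oxidative branch, measured 10.90 and 10.95 in WT and 10.53 and 10.87 in dnTGFbRII cells. Both dnTGFbRII arrays were lower, but dnTGFbRII replicate 1 accounted for most of the difference of -0.22 ± 0.17, which was -0.05 without it. Pgd, which makes NADPH in the oxidative branch, measured 7.14 and 7.15 in WT and 7.07 and 7.27 in dnTGFbRII cells, a difference of 0.03 ± 0.14. The row shared by Tkt, transketolase, and Mir3076 measured 6.23 and 6.40 in WT and 6.05 and 6.54 in dnTGFbRII cells. That row cannot be assigned to Tkt alone, and its WT arrays lay between the dnTGFbRII arrays.

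Of the transcription factors, Myc measured 9.54 and 9.70 in WT and 9.55 and 10.19 in dnTGFbRII cells. Only dnTGFbRII replicate 2 was above both WT arrays, and the difference was 0.25 ± 0.25. Hif1a, the oxygen-regulated activator of glycolytic genes, measured 10.44 and 10.18 in WT and 10.62 and 10.14 in dnTGFbRII cells, a difference of 0.07 ± 0.21 with a 95% interval from -0.50 to 0.63. HIF-1 alpha is regulated mainly at the level of protein stability, which these arrays do not measure.

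Other genes of glucose and pyruvate metabolism were taken from lists compiled with earlier results of these data known. Their counts at an unadjusted p under 0.05 stand against 1.95% higher and 1.29% lower over all genes tested. Of 10 other tested glucose transporter and isozyme genes, 0 passed the adjusted threshold and 0 an unadjusted p under 0.05, with a median of 0.02. Slc2a6 (0.36 ± 0.29), a member of the glucose transporter family, Slc2a9 (0.12 ± 0.12), a urate transporter of that family, and Pgm1 (0.08 ± 0.14), a phosphoglucomutase, had the largest test statistics. Every Slc2a9 value lay under the highest background probe set of its array. The tricarboxylic acid cycle list had 17 tested genes, 6 of them higher in dnTGFbRII cells, with a median difference of -0.01 and 0 past either threshold. The isocitrate dehydrogenase genes Idh2 (-0.24 ± 0.14), Idh3g (0.19 ± 0.13) and Idh3b (-0.14 ± 0.13) came first there and went both ways. Of 8 other pentose phosphate genes 0 passed either threshold, with a median of -0.02. Rbks, ribokinase, differed by 0.15 ± 0.12, Rpe, ribulose phosphate epimerase, by -0.13 ± 0.18, and Prps2, a phosphoribosyl pyrophosphate synthetase, by -0.11 ± 0.18.

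Of 13 other genes of pyruvate and lactate handling, 0 passed the adjusted threshold and 1 an unadjusted p under 0.05. This was Emb, which encodes embigin, a membrane partner of monocarboxylate transporters. Emb measured 10.09 and 8.66 in WT and 11.83 and 10.58 in dnTGFbRII cells, a difference of 1.83 ± 0.64 or 3.55-fold (limma unadjusted p = 0.0403, adjusted p = 1.00). The dnTGFbRII arrays were the higher ones, although arrays within a genotype were over 1 log2 unit apart, replicate 1 being the higher in each. T cell markers also had a higher mean level on the dnTGFbRII arrays, and their part in the Emb value was not tested. Slc16a6, another monocarboxylate transporter family gene, differed by -0.30 ± 0.17, and Pdp1, a pyruvate dehydrogenase phosphatase, by 0.21 ± 0.16.

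In the glycogen and gluconeogenesis list, Pygl, the liver-type glycogen phosphorylase that releases glucose 1-phosphate from glycogen, measured 7.88 and 8.02 in WT and 6.80 and 7.33 in dnTGFbRII cells. Both dnTGFbRII arrays were lower, by 0.88 ± 0.22 (SE) or 1.85-fold on average (limma unadjusted p = 0.0121, adjusted p = 1.00), and it was the only one of the 10 tested genes of this list at an unadjusted p under 0.05. Gyg, glycogenin, differed by 0.28 ± 0.21, and G6pc3, a glucose 6-phosphatase, by 0.18 ± 0.16. The median of the list was -0.03. Dendritic cell markers were also lower on the dnTGFbRII arrays, and their part in the Pygl value was not tested.

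Among 17 tested HIF regulators and HIF targets outside glycolysis, 9 differences were above 0, with a median of 0.03. Epas1, which encodes HIF-2 alpha, measured 5.41 and 5.37 in WT and 6.25 and 6.03 in dnTGFbRII cells. On 2 of the 4 arrays it lay under the highest background probe set. The arrays were close within each genotype, the difference was 0.75 ± 0.14 or 1.68-fold, and it was the 1 gene of the list at an unadjusted p under 0.05 (limma unadjusted p = 0.0040, adjusted p = 1.00). Egln3, a HIF prolyl hydroxylase, differed by 0.28 ± 0.16. On every array but WT replicate 1, both Egln3 and Ndrg1 lay under the highest background probe set of that array. Ndrg1, a hypoxia-induced gene, differed by -0.48 ± 0.26, with WT replicate 1 at 5.44 and the other arrays between 4.58 and 4.74, the same array that stood apart in Hk2 and in the dendritic cell markers.

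The list of the Myc network, mTORC1 and glucose sensing had 29 tested genes, 14 with a difference above 0, and a median of -0.01. Odc1, the ornithine decarboxylase gene and a classical Myc target, measured 13.43 and 12.86 in WT and 14.12 and 13.82 in dnTGFbRII cells. The difference was 0.82 ± 0.24 or 1.77-fold, and Odc1 was the only gene of the list at an unadjusted p under 0.05 (limma unadjusted p = 0.0230, adjusted p = 1.00). Mxd1, a Myc antagonist, differed by 0.31 ± 0.15, and Deptor, an mTOR inhibitor, by -0.27 ± 0.14. Every Deptor value lay under the highest background probe set of its array. In the 7 lists of other pathway genes, 0 genes passed the adjusted threshold in limma.

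**Figure D4:**
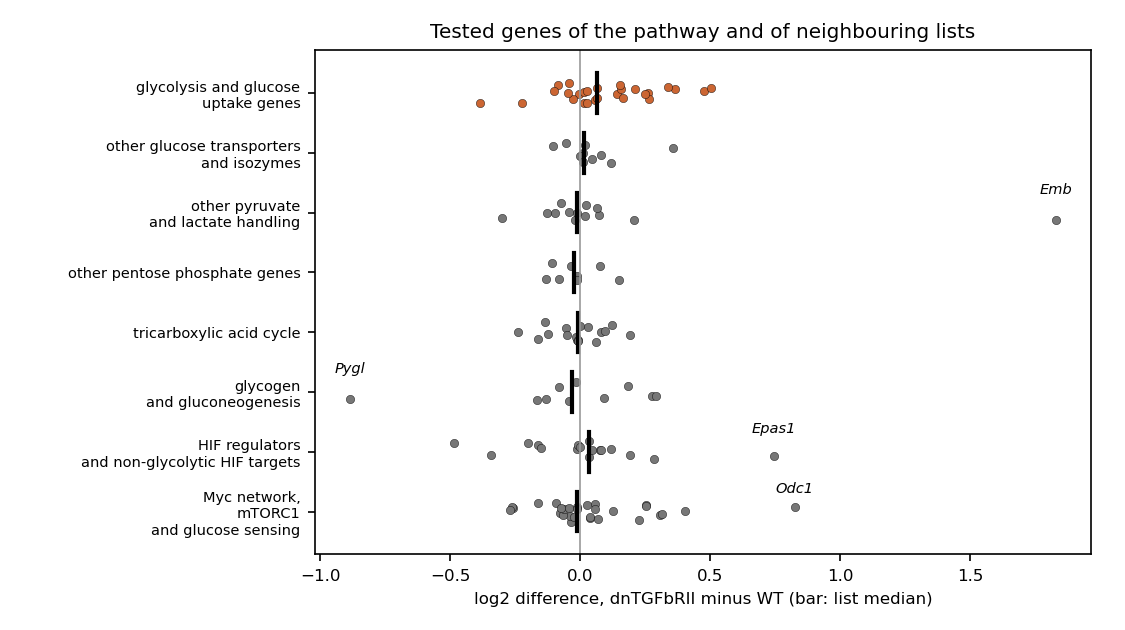
Log2 difference, dnTGFbRII minus WT, of every tested gene among the members (orange) and in 7 lists of neighbouring pathways (grey), with the list median as a bar; vertical scatter within a row has no meaning. Named genes are those at an unadjusted p under 0.05, and none is a member.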

How the data were processed

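RNA of DX5-negative liver NK cells was hybridised to 4 Affymetrix arrays, 2 per genotype. RMA and the Affymetrix Expression Console are named in the submitters' processing notes (without versions; the build behind the array annotation is not stated there). The authors deposited log2 expression values, 1 column per array, which were used without further normalization. The array medians lay between 4.20 and 4.26. Precision is limited by having 2 arrays per genotype.

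Rows were named through the platform annotation, with symbols updated by Entrez identifier to RefSeq (GRCm38.p6, names only). Of 72688 rows, 30604 name 1 gene and 2146 several. The test was limma's moderated test (version 3.58.1, R 4.3.3), 2-sided, fitted on 16245 genes with Benjamini-Hochberg adjustment. Differences are dnTGFbRII minus WT, and ± is the fit's standard error. Scripts were tested on simulated data. The members and lists were chosen with earlier results of these data known, and from each list at most the 3 genes with the largest test statistics were to be named; genes named beyond that, such as Cd3g, were chosen after their values were seen. Alternatives were a trended prior, no filter and a stricter one (6.58), quantile normalization, median centring, averaged rows, the replicate number as a block, an adjusted p of 0.1 and each array left out.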

Additional observations from a re-analysis of the deposited data

How the results depend on the processing

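Among the 27 tested members, 0 passed the adjusted threshold under any alternative, an adjusted p of 0.1 included, in 288 gene values of which 25, in 14 genes, had the opposite sign. After median centring, Slc2a3 was -0.011, Eno3 -0.0100 and Pgd -0.00025, and after quantile normalization Pfkfb3 was 0.015. With an array left out, the differences of the genes whose sign turned ran from -0.076 to 0.10 for Slc2a3, -0.28 to 0.11 for Hk1, -0.012 to 0.13 for Pfkm, -0.080 to 0.074 for Pfkfb3, -0.062 to 0.0089 for Aldoa, -0.084 to 0.40 for Gapdh and -0.14 to 0.87 for Pgam1. They ran from -0.072 to 0.10 for Eno3, -0.11 to 0.17 for Ldha, -0.10 to 0.23 for Pdk1, -0.29 to 0.20 for Pdha1, -0.078 to 0.13 for Pgd, -0.17 to 0.30 for Hif1a and -0.072 to 0.57 for Myc. Among genes whose sign held, the differences ran from 0.15 to 0.80 for Pfkp and 0.17 to 0.51 for Ldhb. For Slc16a1 the range was 0.24 to 0.77, and for Hk2 -0.74 to -0.03. After quantile normalization 1 member (Slc16a1, 3.70%) was higher at a limma unadjusted p under 0.05, against 1.99% of all genes tested. Calls of members at that level also differed from the main fit with an array left out. They are not given, since a genotype then has 1 array. With the replicate block, 4 members (Slc2a1, Pfkp, Ldhb and Slc16a1; 14.8%) were higher at that level, against 4.66% of all genes tested, and 0 passed the adjusted threshold. The block left the members' counts past the adjusted threshold and lower at an unadjusted p under 0.05 at 0, and single genes of the other lists were not compared under it. Over all genes tested it gave 757 higher and 710 lower at that level, against 316 and 209 without it. Deviations of same-numbered arrays correlated at r = 0.51 over all genes tested, and the same number was the higher array in both genotypes for 20 of the 27 members (74.1%), against 71.7% of all genes. The labels do not say what is shared by arrays of 1 number.

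Both dnTGFbRII arrays lay above both WT arrays for 3 of 17 members (17.6%) with the stricter filter, against 9.44% of all genes tested. With an array left out the count was 9 to 18 of 27. It was 9 (33.3%) without WT replicate 1, against 26.9% of all genes, and 12 (44.4%) without WT replicate 2, against 27.4%. It was 18 (66.7%) without dnTGFbRII replicate 1, against 32.1%, and 10 (37.0%) without dnTGFbRII replicate 2, against 33.6%. Both lay below for 1 with the stricter filter (5.88%, against 13.9% of all genes) and 1 after quantile normalization (3.70%, against 14.0%). With an array left out, where fewer arrays make overlap rarer, the count below was 4 to 11. It was 11 without dnTGFbRII replicate 2 (40.7%, against 35.1% of all genes). Without each of the others it was 4 (14.8%, against 29.0% to 38.0%). The median over the members ran from -0.062 to 0.13 with an array left out. The cause of the other shifts was not tested. A genotype left with 1 array was given the spread of the other. The table has no detection call, and 6 members lay under the highest background probe set on every array.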
